A study of Mus musculus with 4 samples.

Results

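The Arf small GTPases Arf1, Arf2, Arf3, Arf4, Arf5 and Arf6 were followed on 4 arrays from the CA1 field of the mouse hippocampus. All 6 genes were present in the array annotation, with 13 spots among the 13738 that carried a single gene name and 6 of the 10698 genes so named. The group was selected on earlier values of the same log ratios, in which Arf5 and Arf6 stood out, so the levels below are a description and carry no test. Every spot annotated to the 6 genes was kept, whatever its value.

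Both groups of mice were young C57BL/6J males that received MK-801, a blocker of the NMDA type of glutamate receptor, so no group without the drug enters the ratios. The MK mice had the drug only. The MK C+S mice had it 1 h before contextual fear conditioning, in which 2 min in a new chamber ended with a foot shock of 1 s at 0.5 mA, given 3 times. RNA was collected 1, 2, 4 and 6 h after the last shock, from MK mice at the matching times, and each time has a single array of 2 dyes. All arrays carried MK as green and MK C+S as red dye, so dye and conditioning cannot be told apart. The labelled MK-801 dose of 300 micrograms per g is far above usual doses in mice and is given as labelled. How many animals were pooled for an array is not stated by the labels.

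Arf proteins are switches of membrane traffic. They are off when bound to GDP and on when bound to GTP. Exchange factors (GEFs) turn them on at a membrane, and GTPase-activating proteins (GAPs) turn them off. Arf1, Arf2 and Arf3 form class I and Arf4 and Arf5 class II, and both classes recruit vesicle coats at the Golgi and the compartments next to it. Arf6, the sole class III member, acts at the plasma membrane and on endosomes. In neurons Arf6 is known for roles in dendrite branching, spine formation and the recycling of membrane receptors.

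Values are log10 ratios per spot, centred on the median of the measured spots of each array. As such ratios are usually written red over green, a value above 0 likely stands for a higher level in conditioned mice. Neither the log base nor the direction is stated by the submitters, and every fold given here assumes base 10 and that direction. A deposited value of exactly 0 was read as not measured. Measured spots numbered 12586, 14760, 15078 and 14650 at 1, 2, 4 and 6 h, and with a single array at each time the number of arrays limits the precision. No intensities were used, so whether the defining transcripts of CA1 neurons were present could not be checked. A lower ratio from tissue RNA cannot tell fewer cells of a type from less RNA per cell.

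Arf5 had the same time course on both of its spots. Spot 289 gave -0.73, -0.59, 0.51 and -0.14 at 1, 2, 4 and 6 h. Spot 12172 gave -0.57, -0.50, 0.33 and 0.019. Both spots were low at 1 and 2 h, high at 4 h and near 0 at 6 h, and both put the times in the same order, with 4 h highest, then 6 h, 2 h and 1 h. As folds, Arf5 was 5.41 and 3.71 times lower in MK C+S at 1 h on spots 289 and 12172, and 3.92 and 3.15 times lower at 2 h. At 4 h it was 3.21-fold and 2.16-fold higher. The spots differed from each other by 0.16, 0.095, 0.17 and 0.16 at the 4 times, while the step from 2 to 4 h was 1.10 on spot 289 and 0.83 on spot 12172. That step lay at percentile 99.9 and 99.8 of the 11488 spots measured on all 4 arrays, for which the median step was -0.016. Whether the spots carry different stretches of the transcript was not tested, as no probe sequences were used here.

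At 4 h, spot 289 lay at percentile 99.6 of all measured spots and spot 12172 at 97.9. At 1 h they were at percentiles 0.469 and 0.707, and at 2 h at 1.18 and 1.77. At 6 h they were inside the bulk of the array, at 25.4 and 53.9. The median of the 50 spots numbered nearest to spot 289 was -0.081, 0.047, 0.079 and 0.05 at 1, 2, 4 and 6 h. For spot 12172 it was -0.063, -0.039, -0.045 and 0.11. The Arf5 values at 1, 2 and 4 h were larger in size than these medians, and at 6 h spot 12172 was closer to 0 than its surroundings.

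The spots of a gene were also set side by side over the array. Of 1629 genes with 2 or more measured spots at 1 h, 8 had every spot at 2-fold or more on the negative side, and Arf5 was among them. At 2 h there were 10 such genes of 2437, again with Arf5. At 4 h, 7 of 2512 genes had every spot at 2-fold or more on the positive side, Arf5 included. Arf5 was chosen for these values, so the counts describe the arrays and support nothing about Arf5.

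The Arf5 gene lies at chr6:28423604-28426602 in GRCm38.p6. Its promoter window is shown because Arf5 had the clearest time course of the family, and the Arf4 window because Arf4 moved least across time as a gene mean. That mean averages spots of opposite sign at 2 and 4 h. Each window runs from 250 bases before to 50 after the start of the gene, as RefSeq gives it for GRCm38.p6, on the plus strand. They are at chr6:28423354-28423653 for Arf5 and chr14:26637884-26638183 for Arf4. Capitals mark TGACG, the core of the element bound by the activity-regulated factor CREB, searched on both strands.
Arf5: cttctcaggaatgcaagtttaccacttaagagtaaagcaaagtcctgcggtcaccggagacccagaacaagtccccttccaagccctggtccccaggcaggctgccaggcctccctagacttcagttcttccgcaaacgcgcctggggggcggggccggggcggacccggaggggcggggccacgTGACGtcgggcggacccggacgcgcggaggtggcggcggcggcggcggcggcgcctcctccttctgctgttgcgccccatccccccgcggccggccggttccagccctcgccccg
Arf4: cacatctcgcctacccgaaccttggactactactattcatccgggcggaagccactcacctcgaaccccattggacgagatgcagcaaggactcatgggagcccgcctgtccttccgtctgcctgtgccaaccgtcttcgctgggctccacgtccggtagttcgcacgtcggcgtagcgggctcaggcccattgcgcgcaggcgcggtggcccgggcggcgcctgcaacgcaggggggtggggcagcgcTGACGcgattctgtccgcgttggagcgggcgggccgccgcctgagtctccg
Both windows hold 1 such match. Windows were matched for 5 of the 6 genes, and some have more than 1 window. TGACG was in 4 of the 8 Arf windows, those of Arf1, Arf4 and Arf5, against 20.8% of all 32851 promoter windows. The full palindrome TGACGTCA, which contains TGACG, was in 0 of the 8 Arf windows and in 1.79% of all. The GC box GGGCGG was in 8 of the 8, with 4 matches in the Arf5 window and 3 in that of Arf4, against 35.7% of all windows. The Arf5 and Arf4 windows are 71% and 68% G and C, against a median of 52.7% over all windows. A match in these windows is a description of the sequence and was not tested against the log ratios.

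Arf6 climbed with time on both spots, but from different levels. Spot 5932 gave -1.16, -0.63, -0.23 and -0.092 at 1, 2, 4 and 6 h. Spot 1753 gave -0.27, -0.18, 0.078 and 0.72. Each step was upward on both, so that 6 h was highest and 1 h lowest. The last step of spot 5932 was 0.14, and the median of its 50 neighbours went from -0.0074 at 4 h to 0.14 at 6 h. After subtracting a running median of 51 neighbouring spots, spot 5932 stood at -0.21 at 4 h and -0.23 at 6 h. Its last step was thus not upward under that setting. From 1 to 6 h the log ratio changed by 1.07 on spot 5932 and by 0.99 on spot 1753. Spot 1753 was above spot 5932 by 0.89, 0.45, 0.31 and 0.81 at the 4 times. The pair had the same sign at 1 and 2 h and opposite signs at 4 and 6 h.

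On spot 5932, Arf6 was 14.6 times lower in MK C+S at 1 h and 4.26 times lower at 2 h, and it passed 2-fold at neither later time. On spot 1753 it was 1.86 times lower at 1 h and 1.52 times lower at 2 h, both short of 2-fold, and 5.23-fold higher at 6 h. The 1 h value of spot 5932 was at percentile 0.27 of the array, and the 6 h value of spot 1753 at percentile 98.0. The 50 neighbours of spot 1753 had a median of 0.15 at 6 h, and those of spot 5932 of 0.14. An Arf6 ratio below 0 at 1 and 2 h was shared by the spots, but past 2-fold on spot 5932 alone. Spot 1753 was at percentiles 5.5 and 13.5 at these times. The high ratio at 6 h rested on spot 1753 alone. As the mean of its spots Arf6 stood at -0.72, -0.41, -0.078 and 0.31, and Arf5 at -0.65, -0.55, 0.42 and -0.062. These means ran low together at 1 and 2 h and parted at 4 and 6 h.

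**Figure D1:**
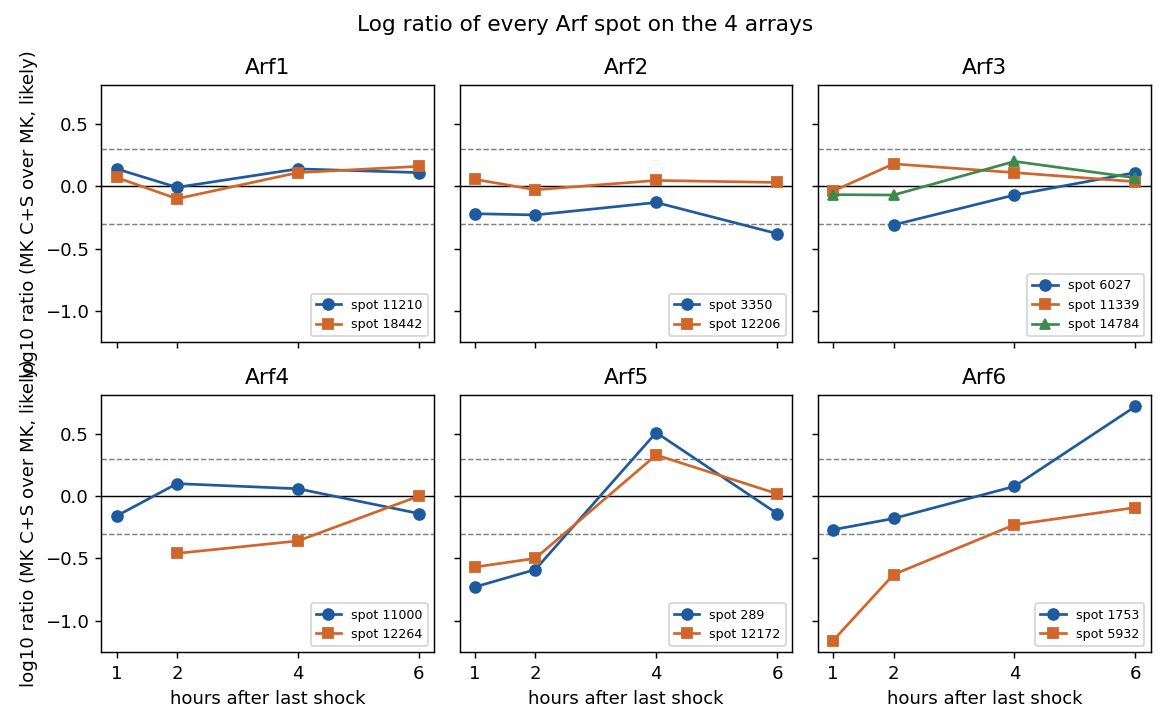
Log10 ratio (vertical axis, MK C+S over MK, likely direction) of the 13 Arf spots against hours after the last shock, with a panel for each gene and a line for each spot; dashed lines mark 2-fold, and there are no error bars because each time has 1 array. The lines of Arf5 run together from -0.73 and -0.57 at 1 h to 0.51 and 0.33 at 4 h, those of Arf6 both rise at each step, from -0.27 and -1.16 at 1 h, and those of Arf1 stay between -0.10 and 0.16.

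Class I genes stayed closer to 0. Arf1, which builds COPI vesicles at the Golgi, gave 0.14, -0.0083, 0.14 and 0.11 on spot 11210 and 0.071, -0.10, 0.11 and 0.16 on spot 18442 at 1, 2, 4 and 6 h. Its spots differed by at most 0.093 and passed 2-fold at no time. Both were positive at 1, 4 and 6 h and negative at 2 h. At 6 h, however, spot 18442 lay below the median of its 50 neighbours, 0.22. It became -0.058 with the running median of neighbouring spots removed.

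Arf2, a class I member close to Arf1, differed between its spots. Spot 3350 gave -0.22, -0.23, -0.13 and -0.38 at 1, 2, 4 and 6 h, negative throughout. Spot 12206 gave 0.056, -0.028, 0.047 and 0.031, all near 0. Only the 6 h value of spot 3350 passed 2-fold, at 2.41 times lower in MK C+S.

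Arf3, the class I member known from the trans-Golgi network, had 3 spots. Spot 11339 gave -0.038, 0.18, 0.11 and 0.037 at 1, 2, 4 and 6 h, and spot 14784 gave -0.067, -0.07, 0.20 and 0.068. Spot 6027 was not measured at 1 h and gave -0.31, -0.07 and 0.11 at the later times. Its 2 h value, 2.03 times lower in MK C+S, was the only one of Arf3 past 2-fold, and the other spots were at 0.18 and -0.07 on that array.

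Arf4, the class II partner of Arf5, did not follow the course of Arf5. Spot 11000 gave -0.16, 0.10, 0.059 and -0.14 at 1, 2, 4 and 6 h. Spot 12264 was not measured at 1 h and gave -0.46, -0.36 and -0.00048 later, or 2.90 times lower at 2 h and 2.30 times lower at 4 h. The spots had opposite signs at 2 and 4 h. As a gene mean Arf4 ranged over 0.11 between arrays, against 1.07 for Arf5 and a median of 0.28 over the 8553 genes measured on every array. The Arf4 mean at 1 h rests on spot 11000 alone, as that of Arf3 does on spots 11339 and 14784.

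The means over the 4 arrays were 0.079 ± 0.09 (SD, n = 4 arrays) for Arf1, -0.11 ± 0.059 for Arf2, 0.0082 ± 0.078 for Arf3 and -0.14 ± 0.048 for Arf4. They were -0.21 ± 0.49 for Arf5 and -0.22 ± 0.44 for Arf6. These means depended on single arrays. The Arf5 mean was -0.063 without 1 h, -0.10 without 2 h and -0.42 without 4 h. The Arf6 mean was -0.057 without 1 h and -0.40 without 6 h. The Arf3 mean, close to 0, was 0.028 without 1 h and 0.033 without 2 h, but -0.016 without 4 h and -0.013 without 6 h. The Arf1 mean was 0.12 without 2 h. The SD here is the spread between times and not between replicates. At 1 h the order from high to low was Arf1 (0.11), Arf3 (-0.053), Arf2 (-0.081), Arf4 (-0.16), Arf5 (-0.65) and Arf6 (-0.72). Arf1 to Arf4 lay as close to their neighbours as the pooled SD between same-gene spots on that array, 0.225. So did Arf5 and Arf6 to each other, and the gap between Arf4 and Arf5 was larger. At 2 h the order was Arf1 (-0.055), Arf3 (-0.066), Arf2 (-0.13), Arf4 (-0.18), Arf6 (-0.41) and Arf5 (-0.55). Only the gap between Arf4 and Arf6 exceeded the pooled SD of 0.204. Their spots still overlapped, with Arf4 spot 12264 at -0.46 and Arf6 spot 1753 at -0.18. At 4 h the order was Arf5 (0.42), Arf1 (0.13), Arf3 (0.079), Arf2 (-0.039), Arf6 (-0.078) and Arf4 (-0.15). Only the gap below Arf5 exceeded the pooled SD of 0.168. At 6 h it was Arf6 (0.31), Arf1 (0.14), Arf3 (0.072), Arf5 (-0.062), Arf4 (-0.072) and Arf2 (-0.18), and no gap between neighbours exceeded 0.329.

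Of 52 possible values of the Arf spots, 50 were measured and 13 passed 2-fold, which is 0.301 on the log10 scale, 3 positive and 10 negative. Among all spots and times 12.8% passed. Arf5 supplied 6 of the 13 and Arf6 3. The other values were 2 of Arf4 and 1 each of Arf2 and Arf3. The largest Arf value short of 2-fold was 0.27 in size and the smallest past it 0.31. Because the family was chosen with such values known, nothing is read from its count against the background.

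At 1 h, 8 of 11 measured Arf spots were negative with a median of -0.16, 3 were at 2-fold or more on the negative side and 0 on the positive side. The background was 4.14% negative and 5.32% positive among all spots. At 2 h, 11 of 13 were negative with a median of -0.18, 5 passed on the negative side and 0 on the positive side, against 5.03% and 2.91%. At 4 h, 9 of 13 were positive with a median of 0.078, and 2 passed on the positive side, both of Arf5, and 1 on the negative side, against 2.94% and 5.03%. At 6 h, 8 of 13 were positive with a median of 0.031, and 1 passed on each side, against 12.7% positive and 12.8% negative. After subtracting a running median of 51 neighbouring spots, 4 of 13 were positive at 6 h and the median was -0.089, so the side of 0 at 6 h turned with that setting. At 1, 2 and 4 h it put 3 of 11, 3 of 13 and 9 of 13 on the positive side. Arf5 and Arf6 held all values past 2-fold at 1 h. Arf3 spot 6027 and Arf4 spot 12264, both past 2-fold on the negative side at 2 h, were not measured at 1 h.

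**Figure D2:**
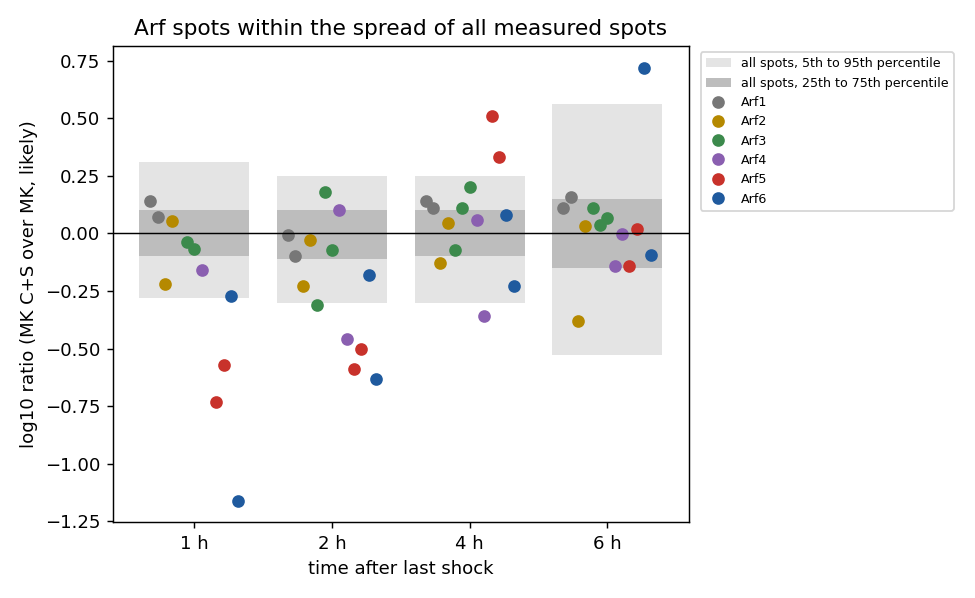
Log10 ratio (vertical axis, MK C+S over MK, likely direction) of each Arf spot at the 4 times, as points coloured by gene, over grey bands for the 5th to 95th and the 25th to 75th percentile of all measured spots. At 1 h both Arf5 spots and the Arf6 spot at -1.16 lie below the wide band, which starts at -0.28; at 4 h both Arf5 spots lie above it, and at 6 h the wide band runs from -0.53 to 0.56 and the Arf6 spot at 0.72 lies above it.

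Agreement between spots differed within the family. Over 23 combinations of gene and time with 2 or more measured spots, the spots shared a sign in 13 and not in 10. The range between Arf5 spots was at percentile 54.7, 31.9, 59.0 and 34.1 of all genes with 2 or more spots at 1, 2, 4 and 6 h, close to the typical gene. For Arf1 it was at 25.8, 31.1, 11.9 and 12.2. For Arf6 it was at 98.6, 89.8, 83.9 and 90.8, so its spots were among those that differed most. Arf4 was at 94.4, 92.0 and 31.1 at 2, 4 and 6 h.

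**Figure D3:**
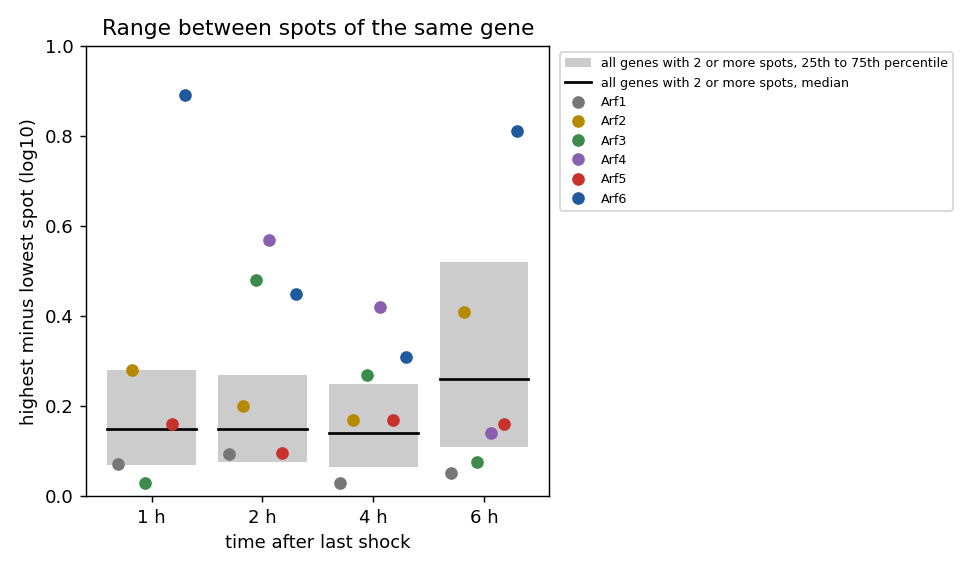
Highest minus lowest spot of each Arf gene (vertical axis, log10 units) at the 4 times, as points coloured by gene, over grey bands for the 25th to 75th percentile and a black line for the median of all genes with 2 or more measured spots. Arf5 lies inside the band at every time (0.16, 0.095, 0.17 and 0.16), while Arf6 lies above it at each, from 0.31 at 4 h to 0.89 at 1 h.

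Genes with the most similar levels over the 4 arrays were sought among 8552 others by the root mean square difference of log ratios. For Arf5 the closest was Hnrnpa0, an RNA-binding protein gene, at a difference of 0.161, with -0.50, -0.29, 0.33 and -0.13 at 1, 2, 4 and 6 h. Josd1, a deubiquitinase gene, followed at 0.202 and Celf2, a splicing factor gene, at 0.206. For Arf6 they were Smad9 (0.14), a transcription factor gene of the BMP pathway, Slc35b1 (0.165), a transporter gene of the endoplasmic reticulum, and Asb4 (0.176). The nearest genes to the Arf members with flatter gene means were closer, at 0.0233 for Arf1 (Oma1, then Rbx1 and Atp9a), 0.0141 for Arf2 (Zbtb43, then Ppp3cc and Ints2), 0.0142 for Arf3 (Hspe1, then Adcy6 and Stambpl1) and 0.0118 for Arf4 (Hdac8, then Kdm3b and Scamp4). Many genes lie near 0 on all arrays, so a small difference there singles out little.

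The genes that act with the Arf proteins were described from 7 lists with 123 names, of which 61 were annotated on the array. Of 239 gene values over the 4 times, 13 passed 2-fold, 6 positive and 7 negative, or 5.44%, against 11.0% of all gene values. By time, 4 of 60 passed at 1 h, 1 of 60 at 2 h, 2 of 59 at 4 h and 6 of 60 at 6 h. Over all genes the shares were 8.47%, 6.58%, 7.07% and 21.9%. The median of the listed genes was -0.028, -0.039, -0.016 and 0.035 at 1, 2, 4 and 6 h, and that of all genes 0.0013, -0.00074, -0.00095 and -0.0062.

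Averaging over the 4 times asked whether a ratio differed from 0 whatever the time, and the slope on hours asked for a trend. Both were fitted with limma on all 8553 genes, taking the variation across times for error, and adjusted over all of them. In the mean, 0 of 58 listed genes passed an adjusted p under 0.05, against a background of 0% of all genes. At an unadjusted limma p under 0.05 there was 1 listed gene, or 1.72%, which was negative. In either direction 11.4% of all genes passed, 609 of the 973 on the negative side. In the slope, 0 of 58 passed, again against 0%. Without adjustment 1 gene rose and 1 fell at an unadjusted limma p under 0.05, or 3.45%, against 14.6% of all in either direction. These 3 results belong to Arfgap1, Ap1g2 and Agfg2, given below.

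Among the GEFs, which switch Arf proteins on, 6 of 16 were annotated and 1 of 21 values passed 2-fold. Psd3, a GEF for Arf6 enriched in brain, gave 0.37 at 1 h, 2.33-fold higher in MK C+S, and 0.023, 0.09 and 0.0093 later. The cytohesins, GEFs bound to phosphoinositides, stayed between -0.11 and 0.21. Cyth3 had the highest mean of the 3 at 0.093 ± 0.081 (SD, n = 4 arrays), Cyth1 was at 0.034 and Cyth2 at 0.028. The list medians were 0.085, 0.023, 0.01 and 0.0093 at 1, 2, 4 and 6 h. At each of 2, 4 and 6 h, 2 of 5 measured genes were negative.

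Among the GAPs, which switch Arf proteins off, 8 of 23 were annotated and 2 of 32 values passed 2-fold, both negative. Arfgap1, the GAP of Arf1 at the Golgi, was negative at each time, with -0.22, -0.28, -0.063 and -0.24. Its mean of -0.20 had a limma adjusted p of 0.416. Arfgap3, its relative, was positive at each time, with 0.16, 0.02, 0.092 and 0.15. Agfg2 had -0.16, 0.11, -0.29 and -0.86 on its 1 spot, with a slope of -0.16 per h on the log10 scale (SE 0.0437, limma adjusted p 0.174). Arap1 was at -0.33 at 1 h and at -0.015, -0.066 and 0.11 later. The list medians were -0.051, -0.025, -0.064 and -0.0029.

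The COPI coat, which Arf1 loads onto Golgi membranes, had 8 of 9 subunits annotated and 1 of 32 values past 2-fold. That value belonged to Copg2, with 0.22, -0.28, -0.43 and 0.024 at 1, 2, 4 and 6 h. Copb1 gave -0.034, -0.17, -0.20 and 0.13, Copa -0.089, 0.086, -0.016 and -0.24, and Copb2 0.12, -0.047, 0.033 and 0.12. The coat medians were -0.032, -0.069, -0.078 and 0.079, with 7 of 8 subunits positive at 6 h, where the median of all genes was -0.0062. Whether this count holds with the running median of neighbouring spots removed was not tested. That setting turned the side of 0 of the Arf spots at 6 h.

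Clathrin adaptors that Arf proteins recruit had 17 of 22 genes annotated, and 4 of 67 values passed 2-fold, 2 in each direction. Ap1m2, a medium chain of the AP-1 adaptor, had a mean of 0.17, with 0.27, -0.05, 0.16 and 0.32. Its relative Ap1m1 was positive throughout, with 0.021, 0.15, 0.16 and 0.16. Ap1g2, a large AP-1 chain, gave -0.039, -0.14, -0.024 and 0.45. Its slope was 0.101 per h on the log10 scale (SE 0.0358, limma adjusted p 0.259). Ap3d1 had a mean of 0.069 and Ap4s1 of -0.065. Ap3s2 had both negative values past 2-fold, -0.42 at 2 h and -0.46 at 6 h, and was not measured at 1 h. Adaptor medians were -0.063, -0.044, 0.0043 and 0.048, and 14 of 17 genes were positive at 6 h, against a median of -0.0062 for all genes. As for the COPI coat, this count at 6 h was not tested with the running median removed, so no joint rise is read from it. Ap1g2, and Ap3s2 with its missing value, fall outside the naming rule for list members, which asks for a value on all 4 arrays, and were named after their values were seen.

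Lipid enzymes and other effectors, which active Arf proteins bind, had 10 of 17 genes annotated, and 4 of 40 values passed 2-fold, 3 positive and 1 negative. Pld1, a phospholipase D activated by Arf, gave 0.39 at 1 h and 0.019, 0.013 and 0.12 later. Arfip2, an arfaptin that binds active Arf and Rac, gave -0.34 at 1 h and -0.015, 0.013 and -0.16 later. Pick1, a scaffold of AMPA receptors, gave 0.0081, -0.23, -0.051 and -0.16. The phosphoinositide kinase gene Pip5k1b had a mean of 0.083. Pip5k1a, whose enzyme makes the lipid PI(4,5)P2 and is activated by Arf6, gave -0.25, -0.12, 0.36 and 0.13 and was named after its values were seen. Its signs were those of Arf5 at 1, 2 and 4 h, at smaller size, and at 6 h its sign was opposite to the Arf5 gene mean. Arfip2 and several other listed genes had the same signs at 1, 2 and 4 h, so the match singles out little.

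Of the relatives of the Arf proteins, Arf-like and Sar GTPases had 7 of 23 genes annotated and 0 of 28 values past 2-fold. Arl2, a regulator of tubulin folding, had a mean of -0.055, Sar1b, the switch of the COPII coat, of -0.048, Arfrp1 of -0.037 and Trim23 of -0.062. At 2 h 6 of the 7 were negative with a list median of -0.14, the lowest median of the 7 lists at that time. Arf-like partners and the enzymes that add myristate to Arf proteins had 5 of 13 genes annotated and 1 of 19 values past 2-fold. That value, -0.64 at 6 h, belonged to the myristoyl transferase Nmt2, which was named after its values were seen. Nmt1 had a mean of -0.069, and Arl2bp, Unc119 and Pde6d had means of 0.078, 0.063 and 0.065.

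**Figure D4:**
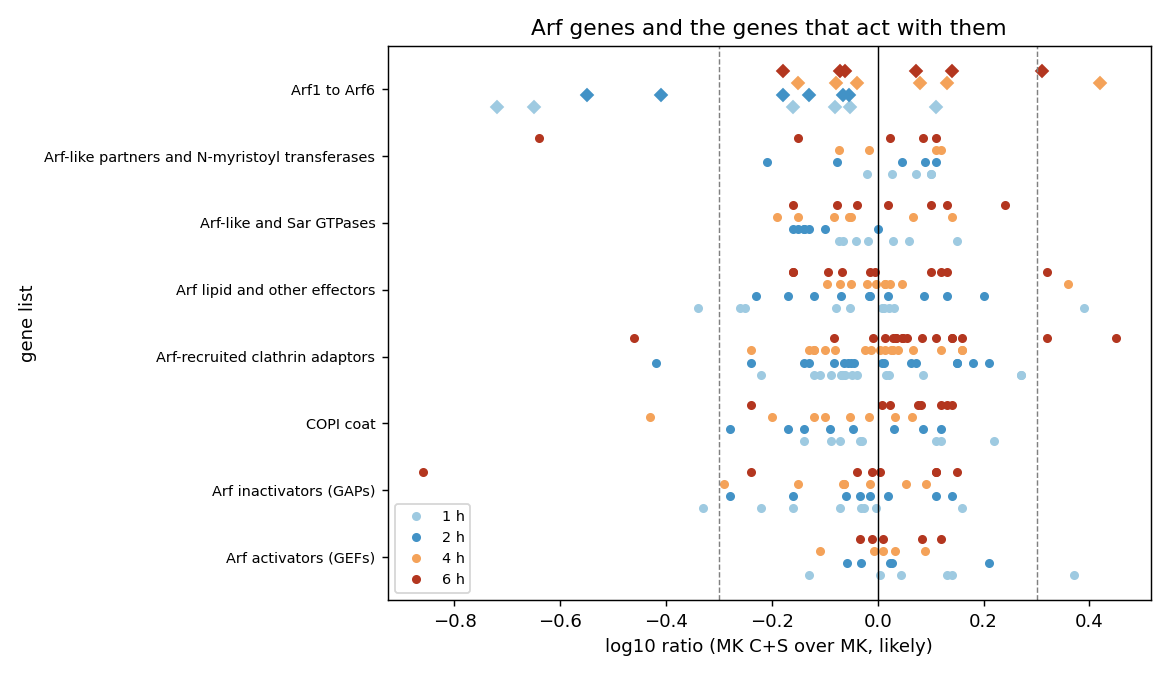
Log10 ratio (horizontal axis, MK C+S over MK, likely direction) of the genes in 7 Arf pathway lists (circles) and of Arf1 to Arf6 (diamonds), coloured by time; dashed lines mark 2-fold. The gene means of Arf5 and Arf6 lie at -0.65 and -0.72 at 1 h, left of every listed gene at 1, 2 and 4 h, while Agfg2 reaches -0.86 at 6 h.

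Markers of other cells varied between the same arrays. Choroid plexus and ependyma markers had a median of 0.47 at 1 h, with 7 of 8 positive and 6 past 2-fold, against 8.47% of all genes at that time. At 2, 4 and 6 h their medians were 0.013, -0.017 and -0.11. The counts over all times below stand beside 11.0% of all gene values. Of the choroid plexus and ependyma values, 9 of 35 over the 4 times were past 2-fold, 6 positive and 3 negative. CA3 pyramidal markers were negative in 4 of 5 genes at 1 and 2 h and in 5 of 5 at 4 h, with medians of -0.18, -0.31 and -0.42. At 6 h 3 of 5 were negative with a median of -0.23. Of their values, 11 of 20 over the 4 times were past 2-fold, all negative. Of the endothelial and mural markers, 7 of 9 were negative at 2 h, with a median of -0.28 and 12 of 36 values past 2-fold over the 4 times. Astrocyte markers had medians of -0.0095, 0.11, 0.049 and 0.17 at 1, 2, 4 and 6 h, with 4 of 28 values past 2-fold. Oligodendrocyte, microglia, CA1 and dentate granule markers had at most 1 value past 2-fold each. The part of such markers in the Arf values was not tested.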

How the data were processed

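The authors deposited 1 log ratio of the dyes per spot for each of 4 arrays, read here as log10 values. That base is an assumption, as no label or header gives the base or the direction. The values ran from -3.10 to 1.58, a range that does not settle the base. How the authors made these log10 ratios (scanner, background correction, normalization) was not given in the sources used here. The table had 16281 spots, and the deposited median of each array was 0 with exact zeros included. Exact zeros (22.7%, 9.34%, 7.39% and 10.0% of spots at 1, 2, 4 and 6 h) were read as not measured, and each array was centred on the median of the rest.

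The platform annotation named 1 gene for 13738 spots, several for 52 and none here for 2491. Entrez identifiers of 13694 spots matched RefSeq (GRCm38.p6), which changed 0 symbols. Arf loci and promoter windows came from RefSeq. Measured spots of a gene were averaged. limma 3.58.1 (R 4.3.3) tested the mean and the slope on hours, two-sided, with Benjamini-Hochberg adjustment over 8553 genes measured on every array, and was tested on simulated data. Tables were made with Python 3.11.15, pandas 2.3.3 and numpy 2.4.6.

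The members and the gene lists were chosen with earlier results of these data known. Named genes were all Arf members, the 3 genes nearest to each in level, and up to 4 genes of each pathway list with the largest absolute mean among those measured on all 4 arrays. Cell type markers were used by list. Alternatives covered the size threshold, log base, centring, neighbouring spots, scaling, zeros, the summary of spots, array weights, the filter on arrays, the time covariate and leaving out each array.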

Additional observations from a re-analysis of the deposited data

Results flagged for a closer look

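Arf5 lay below 0 at 1 and 2 h and above 0 at 4 h, with both of its spots past 2-fold at these 3 times. At 6 h neither spot passed. Its gene value at 4 h was above that at 1 h by 1.07 on the log10 scale and above that at 2 h by 0.97. Each time has a single array, so the difference between times was not tested.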

How the results depend on the processing

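No paired analysis was possible because each time has 1 array, on which MK and MK C+S are already combined in a ratio. All 13 Arf spot values past 2-fold stayed past it as deposited without centring and with exact zeros kept as a ratio of 1. Neither setting could show otherwise. Centring moved values by at most 0.00547, and keeping zeros left measured values unchanged. With a running median over 51 spots removed 12 stayed past 2-fold (spot 6027 of Arf3 at 2 h became -0.29). With arrays scaled to one spread 12 did (spot 3350 of Arf2 at 6 h became -0.30). All 200 alternative values of single Arf spots under these 4 settings moved by less than the pooled SD of same-gene spots. Values without centring or with zeros kept could not fail this. A move within that SD could still turn a sign. With the running median removed, for example, Arf1 spot 18442 at 6 h went from 0.16 to -0.058. Means of a spot over times turned sign without 1 array for Arf6 spot 1753 (from 0.086 to -0.12 without 6 h), Arf3 spots 6027 (from -0.088 to 0.021 without 2 h) and 14784 (from 0.032 to -0.023 without 4 h) and Arf4 spot 11000 (from -0.036 to 0.0061 without 1 h). The Arf median at 6 h was -0.089 with the running median removed, against 0.031. The Arf median at 1 h was -0.067 with zeros kept as a ratio of 1, against -0.16. The count of 13 Arf values was 20 at 1.5-fold and 8 at 3-fold, 3 if the values are natural logs and 1 if they are log2. The count of 13 pathway values was 36 at 1.5-fold and 2 at 3-fold, 1 with natural logs and 0 with log2. Leaving out 1 array gave 8 to 11 Arf values (8 without 2 h) and 7 to 12 pathway values (7 without 6 h).

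In limma's mean over times, 1 gene of all passed with genes on at least 3 arrays and 2 with array weights, with 0 pathway genes in both. Leaving out 1 array gave 0 to 1 genes. In the slope, leaving out 1 array gave 0 to 418 genes of all, 418 without the 4 h array, and 0 to 1 pathway genes. The pathway gene was Agfg2, at a limma adjusted p of 0.0484 without 4 h, against 0.174 with all 4 arrays. The cause was not tested. A single array for each time, an unstated log base and direction, and a fixed dye orientation limit every Arf value.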
